A study of Mus musculus with 73 samples.

Results

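In hybrid mouse embryos, 44 autosomal genes were read mostly from the CAST copy whichever parent had supplied it. They were selected on measured values: a gene was kept when its mean CAST share of allele-assigned reads was 70% or more in each of the 4 wild-type groups, over libraries with 20 or more such reads and with 3 or more such libraries in every group. Of the 29557 autosomal genes in the deposited table (30546 genes in all), 6294 had enough reads for the rule, so the 44 members were 0.699% of those that could be judged. The same rule turned toward the BDF1 copy kept 316 genes. The wild-type CAST shares given below therefore describe how the members were chosen and test nothing, whereas their gene types and their shares and levels in knockout libraries were not used in the choice. Wild-type levels entered it only through the minimum of 20 reads.

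The study sequenced RNA from epiblast, the precursor of the embryo proper, and from extraembryonic ectoderm (ExE), a precursor of the placenta, dissected at embryonic day 6.5 from embryos in which a laboratory genome met that of the wild-derived CAST strain. BDF1 animals are hybrids of C57BL/6 and DBA/2, so each gamete of a BDF1 parent carries its own mixture of those genomes. Wild-type BDF1xCAST embryos (7 epiblast and 7 ExE libraries) came from BDF1 oocytes injected with CAST sperm, and wild-type CASTxBDF1 embryos (4 and 4) from natural mating of CAST females with BDF1 males. Knockout embryos were BDF1xCAST zygotes injected with Cas9 mRNA and a mixture of sgRNAs against Dnmt1 (3 epiblast and 3 ExE libraries), against G9a and Glp together (6 and 8), against Rnf2 (6 and 5) or against Eed (9 and 10). Each library held one tissue of one embryo, so a knockout group is a set of separately edited embryos that may be mosaic. Dnmt1 maintains DNA methylation, G9a and Glp (encoded by Ehmt2 and Ehmt1) methylate histone H3 on lysine 9, Rnf2 is the ubiquitin ligase of Polycomb complex PRC1, and Eed is a core subunit of PRC2.

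In a cross between distant strains, a sequence difference near a gene that changes its transcription acts in cis, on the copy that carries it, and shows as an unequal share of reads that follows the strain and not the parent. An imprinted gene instead switches its share when the direction of the cross is switched. Retrocopies, which are pseudogenes made from spliced messenger RNA, can be present in one strain and altered or missing in another, and reads from a near-identical parent gene can be assigned to them.

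The libraries held 1141414 to 17653087 allele-assigned reads, the deepest being Rnf2 epiblast, and the BDF1 copy took 56.4% to 57.7% of autosomal reads in the various groups. Summed epiblast markers lay between 2282 and 6866 CPM (a gene's reads scaled to the allele-assigned reads of its library) in epiblast libraries and between 535 and 1428 CPM in ExE libraries, while ExE markers lay between 322 and 1345 CPM in ExE and between 25.2 and 246 CPM in epiblast. Visceral endoderm markers reached 640 CPM in 1 wild-type BDF1xCAST epiblast library and 2431 CPM in 1 CASTxBDF1 epiblast library, and their part in the results was not tested. Eed reads were below the lowest wild-type library in 9 of 9 epiblast and 10 of 10 ExE knockout libraries and Dnmt1 reads in 3 of 3 and 2 of 3. In the epiblast labelled G9a-Glp, Ehmt1 was below in 2 of 6 libraries and Ehmt2 in 0 of 6; in ExE these numbers were 5 of 8 and 6 of 8. The lowest wild-type epiblast held only 0.396 CPM of Ehmt2, which left little room for a lower value. Mean Ehmt2 in epiblast was 3.07 CPM in G9a-Glp and 3.07 CPM in wild type, and the lowest G9a-Glp epiblast held 1.13 CPM. Rnf2 was below in 4 of 6 epiblast and 0 of 5 ExE libraries. Reads outside a deleted stretch check nothing, but every Rnf2 ExE result below is a result of the libraries labelled Rnf2.

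Gene type set the members apart from the other genes that could be judged. RefSeq classed 22 of the 44 (50.0%) as protein coding, against 94.5% of the 6294 genes. Pseudogenes made up 12 members (27.3% against 0.86%), and 22.2% of the 54 pseudogenes with enough reads were members. Long noncoding RNAs made up 8 members (18.2% against 3.86%). Platr25, a transcript named for its association with pluripotency, was classed as another RNA, and Gm40123 had no RefSeq match. Pseudogene shares are uncertain wherever reads of a parent gene could have been counted at the copy.

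**Figure D1:**
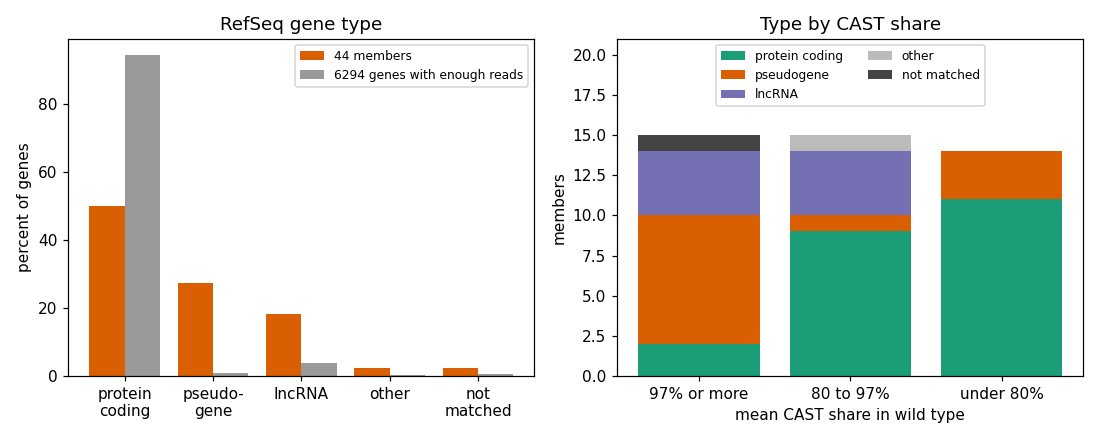
The left panel gives the percent of genes in each RefSeq type for the 44 members (orange) and the 6294 genes with enough reads (grey); pseudogenes are 27.3% and 0.86%. The right panel gives the number of members of each type at 3 levels of mean wild-type CAST share; 8 of the 15 members at 97% or more are pseudogenes.

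The type also went with how complete the bias was. At a mean wild-type share of 97% or more stood 15 members, of which 8 were pseudogenes, 4 long noncoding RNAs, 2 coding genes (the chemokine gene Ccl9 and Mlc1, a membrane protein gene of astrocytes) and 1 unmatched. Members that share reads are counted here under each name: the reads of Mlc1 are those of Gm8702, one of the 8 pseudogenes. Between 80% and 97% stood 15 members, 9 of them coding, and under 80% stood 14, 11 of them coding. The median share was 87.9% over the members and 46.2% over all genes with enough reads. Members were short, with a median locus of 8.18 kb against 23.2 kb, and 16 (36.4% against 3.10%) spanned less than 2 kb. Those 16 had a median share of 95.8% and the 28 longer ones 82.8%.

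At the complete end, BDF1 reads were close to nil. Gm5566, a pseudogene on chromosome 5, had 0 BDF1 reads among 921 wild-type reads, where a count of 0 allows up to 3 reads. Gm8615, a transcribed pseudogene on the same chromosome, had 1 of 1616, Gm6485 17 of 13888, Gm6252 4 of 1352, Ccl9 4 of 3371 and Gm40123 7 of 2386. The same 6 genes had between 0.0872% (Gm6485) and 0.586% (Gm6252) BDF1 reads over all 72 libraries, knockouts included. Nearly all reads of these genes, in every group, were thus assigned to the CAST copy.

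At the other end the threshold cut through a continuum. The 5 members nearest above it, by their lowest group mean, were Platr25 (70.0%), the meiotic recombination gene Mnd1 (70.25%), the secreted phospholipase gene Pla2g1b (70.3%), the succinate dehydrogenase assembly gene Sdhaf3 (70.4%) and the deubiquitinase gene Otub1 (70.75%). Just outside lay Mzt2 (69.6%), Swsap1 (69.5%), Gm7120 (69.25%), Gm3086 (69.0%) and Sparc (68.4%).

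Several members are the same reads counted under different names. Mlc1 and Gm8702, a pseudogene inside it (chr15:88979769-88980549, mm10), had identical reads in all 72 libraries, so the values of Mlc1 are those of the pseudogene interval. Gm8615 accounted for 98.9% of the reads of the long noncoding RNA 5730422E09Rik that holds it, and Gm2573 for 88.5% of the reads of Zfr, which encodes an RNA-binding zinc finger protein. Gm34865 matched 87.1% of the reads of Nup210l, a relative of a nuclear pore gene, and LOC102632739 90.3% of those of Arhgap26. Gm16191 and Pxt1 overlap in part and had similar read totals, 5480 and 5636, equal in 26 of the 72 libraries. Counted by locus, the 44 members are 38 loci on 15 chromosomes, and 22 members (50.0% against 34.9% of all genes with enough reads) overlapped another gene with reads. Over all 72 libraries BDF1 reads were 10140 of 37615 in Zfr and 7686 of 33276 in Gm2573. Nup210l had 511 of 6007 and Gm34865 40 of 5234. Arhgap26 had 752 of 5843 and LOC102632739 378 of 5276. 5730422E09Rik had 79 of 7976 and Gm8615 16 of 7886. Outside the inner gene, reads of these hosts thus had a lower CAST share than the whole host. Whether the hosts would be members on those reads alone was not tested. Reads shared by genes that overlap only in part cannot be told apart here.

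Most genes around the members were not biased this way. Over the 44 members, the median CAST share of genes within 1 Mb had a median of 45.8%. The highest such neighbourhood value, 76.5%, belonged to Rps15a-ps5, whose only neighbour with enough reads was Lrrc8d, the gene that holds it. Gstz1 (the tyrosine breakdown enzyme maleylacetoacetate isomerase) had Pomt2 at 75.2% next to it, and 3110070M22Rik had Gm7120 at 78.0%. Single neighbours with a high share also lay within 1 Mb of Adgrd1 (75.4%) and Gm10457 (73.6%), without an overlap. Platr25 in contrast overlapped LOC108167344 at 51.6%, and Ppwd1, which encodes a cyclophilin of the spliceosome, overlapped Cenpk at 46.1%. The only group of members that was more than 1 locus was on chromosome 5 (chr5:149119564-149661238, mm10), where Gm5566 lies beside 5730422E09Rik and Gm8615.

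**Figure D2:**
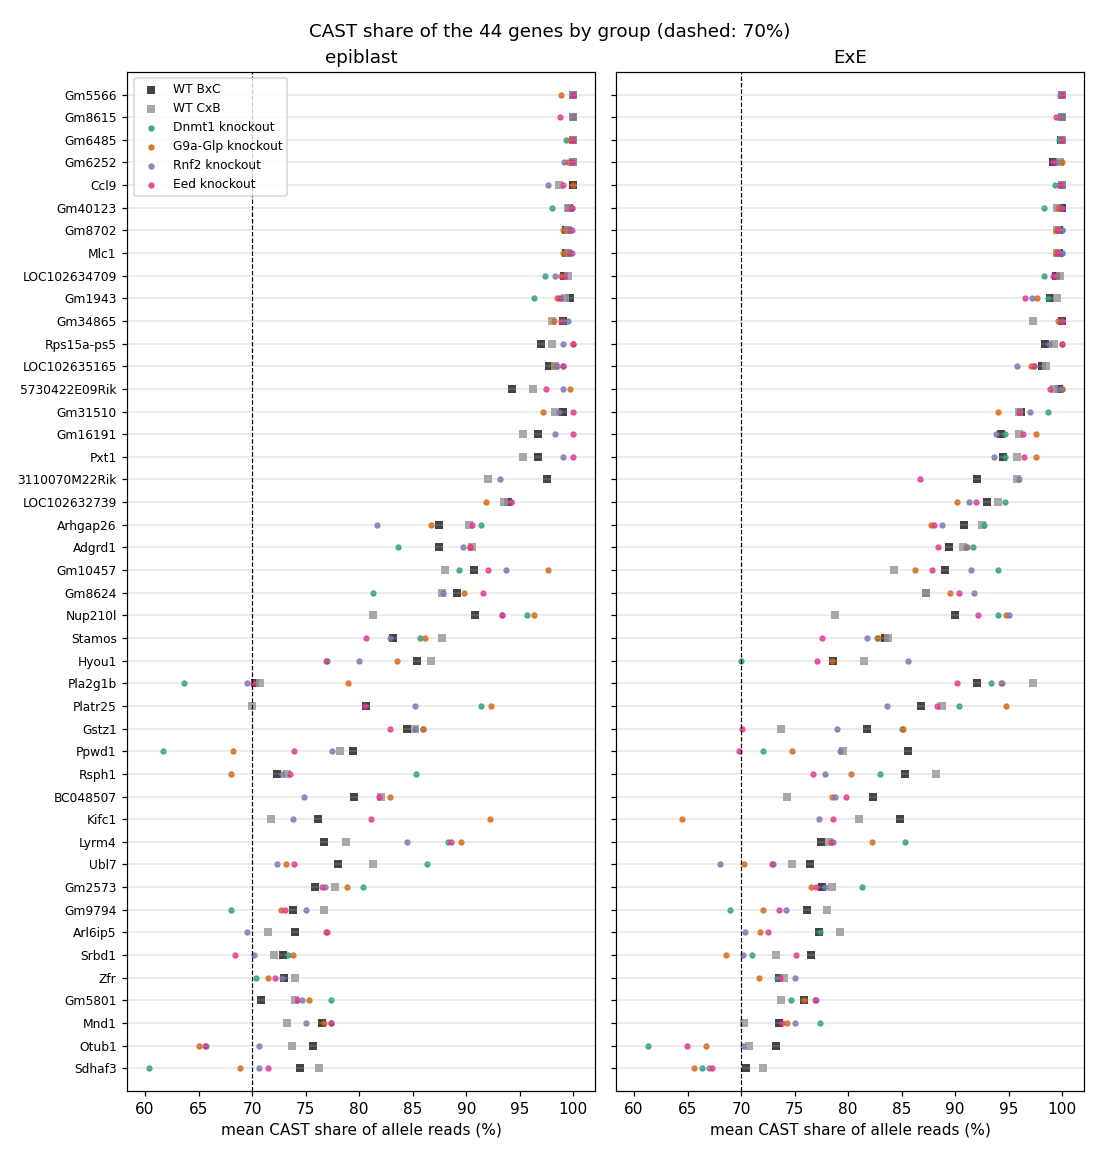
Each row is 1 of the 44 members, ordered by mean wild-type share, and each marker is a group mean of the CAST share (percent of allele-assigned reads; group means over fewer than 3 libraries are left out), with squares for wild type and circles for knockouts. Members at the top stay near 100% in every group; Sdhaf3, Otub1 and Ppwd1 have knockout means left of the dashed 70% line.

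Shares of a member differed little between the crosses and the tissues, with medians of the absolute difference of 1.33 and 1.64 percentage points. The rule asked for 70% or more in each of these groups, and 15 members stood at 97% or more, which by itself limits such differences. The largest gap between tissues was in Pla2g1b. Its share in wild-type BDF1xCAST epiblast was 70.3% ± 4.64 (SD, n = 7; 65 to 78%) and in ExE 92.0% ± 4.65 (n = 6; 85 to 97%). In the reciprocal cross the values were 79, 66, 64 and 74% in epiblast and 97, 97, 97 and 98% in ExE. The tissues did not overlap in either cross, and the knockout libraries, which did not choose the gene, repeated the order: 63.7% ± 6.43 in Dnmt1 epiblast (n = 3) against 93.3% ± 5.03 in ExE (n = 3), and 70.1% ± 5.13 in Eed epiblast (n = 9) against 90.2% ± 12.1 in ExE (n = 10). Platr25 had 70.0% ± 5.35 in CASTxBDF1 epiblast and 88.75% ± 2.22 in ExE (n = 4 each). No test of these tissue differences was made.

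Embryos of 1 group also differed from each other, and for Hyou1, an endoplasmic reticulum chaperone gene (chr9:44379489-44392369, mm10), the same embryos were high in both tissues. In wild-type BDF1xCAST embryos 4, 6 and 8 its share was 96, 91 and 98% in epiblast and 90, 97 and 93% in ExE. In embryos 1, 2, 3 and 7 it was 79, 81, 76 and 77% in epiblast and 62, 71, 69 and 68% in ExE. The embryos thus formed a high and a low set that was the same in both tissues. CASTxBDF1 embryos gave 95, 95, 77 and 80% in epiblast and 91, 94, 71 and 70% in ExE, again with the same 2 embryos high. Knockout embryos covered the same range, from 61 to 95% in epiblast and from 56 to 97% in ExE. The SD over the 7 ExE libraries was 14.2 points, where counting alone gives 3.29. Hyou1 was chosen for description after its values were seen. Over the 28 embryos whose number and title agree in both tissues, its shares in epiblast and ExE had a Pearson correlation of 0.869. Some Eed libraries share a title number under different embryo numbers and were left out. A correlation over 0.5 was found in 1 of 37 members (2.7%), against 5.68% of all autosomal genes with a value. Over the 7 wild-type BDF1xCAST embryos it was found in 8 of 32 members (25.0%), against 18.6% of all. The pattern of Hyou1 is thus not one of the members as a set.

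**Figure D3:**
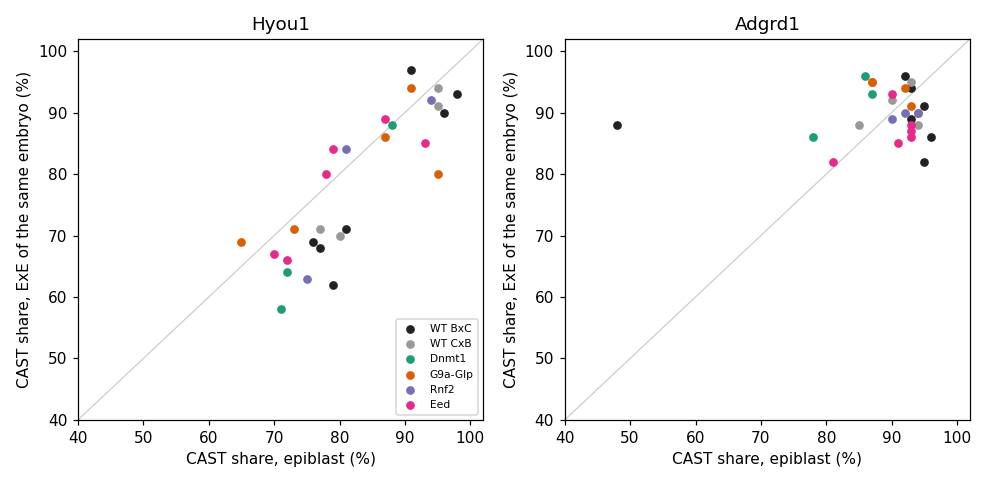
Each point is 1 of 28 embryos whose number and title agree in both tissues. The CAST share (percent) is on the x axis for epiblast and on the y axis for ExE. Colours mark the groups, and the grey line marks equal shares. Hyou1 embryos spread along the line from 58 to 98%, and in Adgrd1 a single wild-type embryo (48% in epiblast, 88% in ExE) stands apart from the rest. The 3 Eed embryo numbers whose epiblast and ExE titles differ are left out.

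In wild-type BDF1xCAST epiblast, the largest spreads mostly came with a single low library. Adgrd1, an adhesion receptor gene, had 92 to 96% in 6 embryos and 48% in embryo 8 (50 reads), whose ExE gave 88%. Ubl7, a ubiquitin-like protein gene, had 77 to 88% in 6 embryos and 51% in embryo 3. The share of 5730422E09Rik was 93 to 100% except for 72% in embryo 8, which rests on 25 reads. Rsph1, a ciliary radial spoke gene, had 67 to 85% in 5 embryos and 45% in embryo 3. Srbd1, an RNA-binding protein gene, spread more evenly, from 63 to 86% (72.9% ± 10.1, n = 7).

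The first question put to the knockouts was whether a chromatin regulator is needed for the bias. In libraries that took no part in the choice of members, most kept a mean CAST share of 70% or more. Of the members with 20 or more reads in at least 3 libraries, 26 of 31 did so in Dnmt1 epiblast and 35 of 38 in ExE. In G9a-Glp these were 37 of 41 and 39 of 43, in the libraries labelled Rnf2 42 of 44 and 42 of 44, and in Eed 41 of 43 and 41 of 44. In all knockout groups with a value, 34 members stayed at or above 70%. The other 10 members fell short in at least 1 group: Sdhaf3 in 6 groups (60.3% to 68.8%), Otub1 in 6 (61.3% to 66.75%) and Ppwd1 in 3 (61.7% to 69.8%). Ppwd1 had not been near the threshold, its lowest wild-type group mean being 78.25%. Pla2g1b, Gm9794 and Srbd1 fell short in 2 groups each and Rsph1, Kifc1, Arl6ip5 and Ubl7 in 1 each. Otub1 had 65.7% ± 4.73 in Dnmt1 epiblast, 65% ± 2.37 in G9a-Glp epiblast and 65.6% ± 4.19 in Eed epiblast. The rule selected high wild-type values, so a knockout mean just under 70% is by itself no change.

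An allelic test looked at the change in share itself. For each tissue, CAST and BDF1 reads of a knockout were set against those of the BDF1xCAST wild type by edgeR's quasi-likelihood test, with a term for each library and p-values adjusted over all autosomal genes tested; a call is an adjusted p below 0.05. The wild-type libraries here also chose the members, and the 4 knockouts share them. Over the 8 comparisons 7 of 44 members were called at least once and 37 never. The share of all autosomal genes called at least once was not counted, so 7 of 44 cannot be read as many or few. Of the 14 calls, 5 were toward CAST and 9 toward BDF1.

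In Dnmt1 epiblast 0 of 40 members tested were called (9 at an unadjusted p under 0.05, and 1 by DESeq2), where 0.908% of all genes were. In Dnmt1 ExE 3 of 44 were called, all toward BDF1, against 0.856% of all genes, and none of the 3 was called when any 1 of the 3 knockout libraries was left out. In G9a-Glp epiblast 4 were called (1.81% of all genes), 3 of them toward CAST, and in ExE 2 (1.1%), 1 toward CAST. In the libraries labelled Rnf2 0 were called in epiblast (8 at an unadjusted p under 0.05, 0 by DESeq2; 0.686% of all genes) and 0 in ExE (6 and 0; 0.911%). In Eed epiblast 2 were called (1.05%), 1 toward CAST, and in ExE 3 (2.65%), all toward BDF1. Median changes of the log2 allele ratio over members lay between -0.28 (Dnmt1 epiblast) and 0.14 (Dnmt1 ExE), and over all genes between 0.00 and 0.01.

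**Figure D4:**
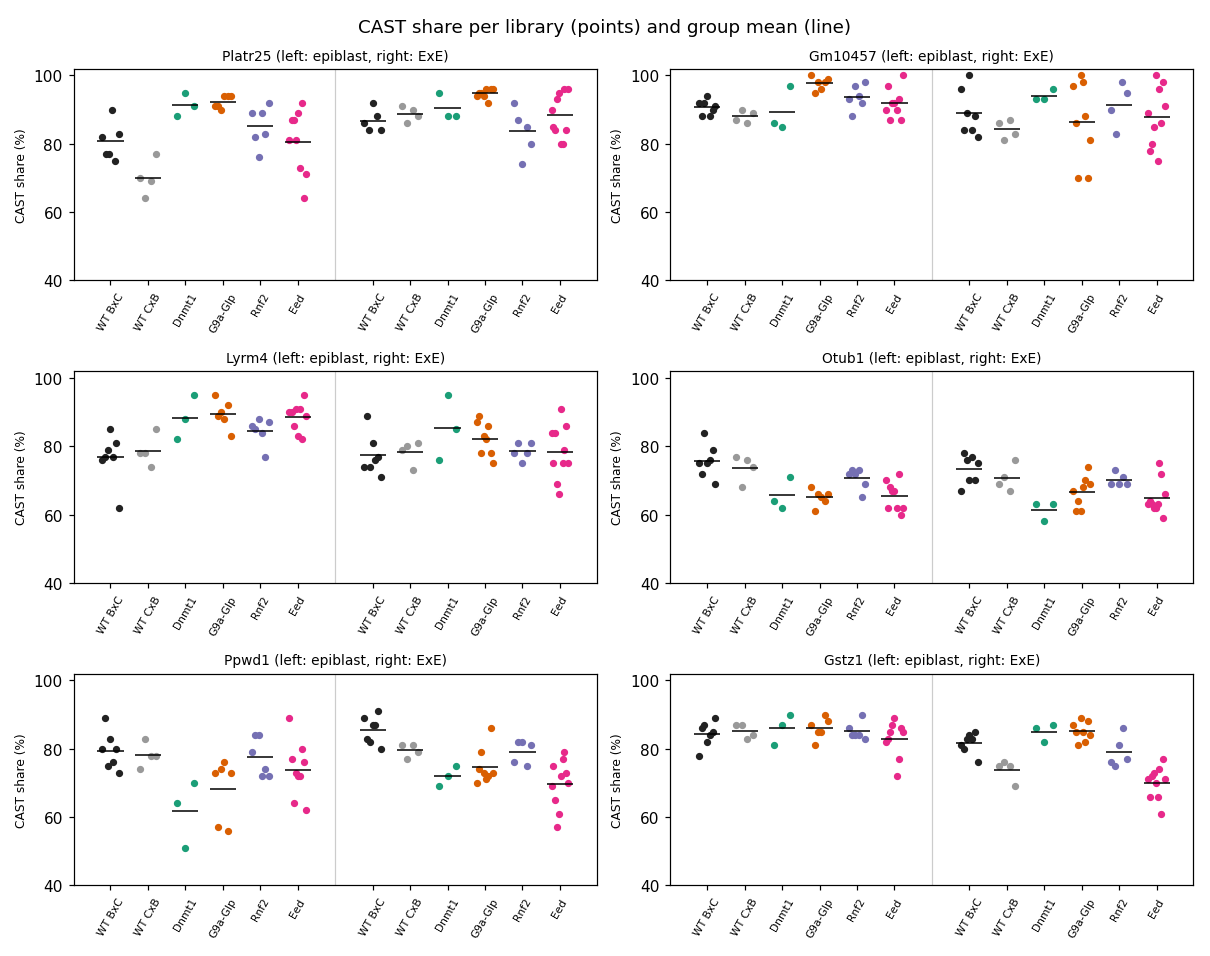
Points are the CAST share (percent of allele-assigned reads) of single libraries with 20 or more reads and lines are group means, for 6 of the 7 members with an allelic call, with epiblast on the left and ExE on the right of each panel (WT BxC, wild-type BDF1xCAST; WT CxB, wild-type CASTxBDF1). Platr25 lies at 90 to 96% in every G9a-Glp library, and Otub1 is lower in several knockouts than in wild type while still above 50%.

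Toward CAST moved Platr25 in both G9a-Glp tissues. Its share in epiblast was 75 to 90% in 6 wild-type libraries and 90 to 94% in 6 knockout libraries, from 80.7% ± 5.54 to 92.3% ± 1.86 (log2 change of the allele ratio 1.65, adjusted p = 0.00132). In ExE it was 84 to 92% in 5 wild-type and 92 to 96% in 8 knockout libraries, which meet at 92% (1.56, adjusted p = 0.000786). Both copies gave more reads in the knockout: in epiblast the CAST copy went from 20.4 ± 9.97 to 310 ± 52.4 CPM and the BDF1 copy from 5.35 ± 2.0 to 25.6 ± 7.08 CPM. The epiblast call was lost when only the 2 libraries with a lowered Ehmt1 were used (adjusted p = 0.228).

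Gm10457, a long noncoding RNA (chr12:70912696-70914478, mm10), rose from 90.7% ± 2.21 in wild-type epiblast (88 to 94%, n = 7) to 97.7% ± 1.86 in G9a-Glp epiblast (95 to 100%, n = 6), with no overlap (2.14, adjusted p = 0.00106). Reads of both copies were fewer, the CAST copy at 236 ± 118 against 73.1 ± 25.5 CPM and the BDF1 copy at 24.1 ± 12.5 against 1.80 ± 1.94 CPM. Lyrm4, which encodes a partner of the iron-sulfur cluster desulfurase, rose from 76.7% ± 7.18 to 89.5% ± 4.04 in G9a-Glp epiblast (1.31, adjusted p = 0.0171) and to 88.6% ± 4.16 in Eed epiblast (1.10, adjusted p = 0.0212). Its CAST reads were at 44.6, 41.6 and 47.2 CPM in wild type, G9a-Glp and Eed, and its BDF1 reads were fewer in the knockouts (12.9 against 4.82 and 6.40 CPM). The G9a-Glp call of Lyrm4 was lost with only those 2 libraries as well.

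Toward BDF1 moved Otub1, in 4 comparisons. In epiblast its share was 69 to 84% in wild type, 61 to 68% in G9a-Glp (-0.82, adjusted p = 0.0014) and 60 to 72% in Eed (-0.77, adjusted p = 0.00291). In ExE it was 67 to 78% in wild type, 58 to 63% in Dnmt1 (-0.79, adjusted p = 0.0272) and 59 to 75% in Eed (-0.57, adjusted p = 0.0197). In epiblast both copies gave more reads in the knockouts, BDF1 going from 31.5 ± 16.7 CPM to 93.3 ± 17 in G9a-Glp and 86.4 ± 16.0 in Eed. The wild-type CASTxBDF1 shares, 77, 68, 76 and 74% in epiblast and 69, 71, 67 and 76% in ExE, overlapped those of the BDF1xCAST wild type in both tissues. The G9a-Glp call was lost when only the 2 libraries with lowered Ehmt1 were used.

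Ppwd1 moved the same way in 3 ExE comparisons, from 85.6% ± 3.99 in wild type (80 to 91%) to 72.0% ± 3.00 in Dnmt1 (-1.23, adjusted p = 0.0323), 74.75% ± 5.28 in G9a-Glp (-1.04, adjusted p = 0.0186) and 69.8% ± 7.02 in Eed (-1.37, adjusted p = 0.000341). The reciprocal wild type gave 81, 77, 81 and 79%. Gstz1 was called in Eed ExE, from 81.7% ± 3.04 to 70.1% ± 4.63 (-0.94, adjusted p = 7.51e-05), where the BDF1 copy rose from 22.3 ± 4.99 to 56.5 ± 15.9 CPM. The CASTxBDF1 ExE value of Gstz1, 73.75% ± 3.20, was closer to the Eed value than to that of the other cross. Gm9794, a pseudogene, went from 76.1% ± 2.27 to 69.0% ± 2.0 in Dnmt1 ExE (-0.51, adjusted p = 0.0319). Differences between tissues or knockouts in these changes were not tested.

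Total level, summed over both copies, entered the rule only as a minimum in wild type. It was called more often than the allele ratio, among the members as among all genes tested. The quasi-likelihood test of edgeR was run on all genes that passed the filter on low counts, with trimmed-mean scaling, and all 44 members were tested in every comparison; all of them had to have 20 or more reads in wild-type libraries to be members, which also lets them pass this filter. In bulk tissue fewer cells of a type and less RNA per cell cannot be told apart. In Dnmt1 epiblast 2 members were higher and 10 lower, where 6.94% and 7.16% of all genes were. In Dnmt1 ExE 0 were higher and 13 lower (8.54% and 9.96% of all genes). In G9a-Glp epiblast 8 were higher and 10 lower (19.6% and 15.0%), and in ExE 4 and 3 (8.5% and 6.66%). In the libraries labelled Rnf2, 6 were higher and 6 lower in epiblast (18.0% and 13.0%), and 3 and 4 in ExE (12.2% and 9.99%). In Eed epiblast 7 were higher and 13 lower (19.2% and 16.5%), and in ExE 2 and 10 (22.7% and 18.1%). Counted by locus, the lower members were 8, 12, 9, 3, 5, 4, 10 and 9 in the same order. Medians of the log2 change over members ranged from -0.50 (Dnmt1 ExE) to 0.04 (Rnf2 epiblast), and over all genes from -0.03 to 0.02. Over the knockout comparisons 9 members were never called, and 3 were called in both directions. The same counts over all genes were not made, so these numbers do not set the members apart.

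**Figure D5:**
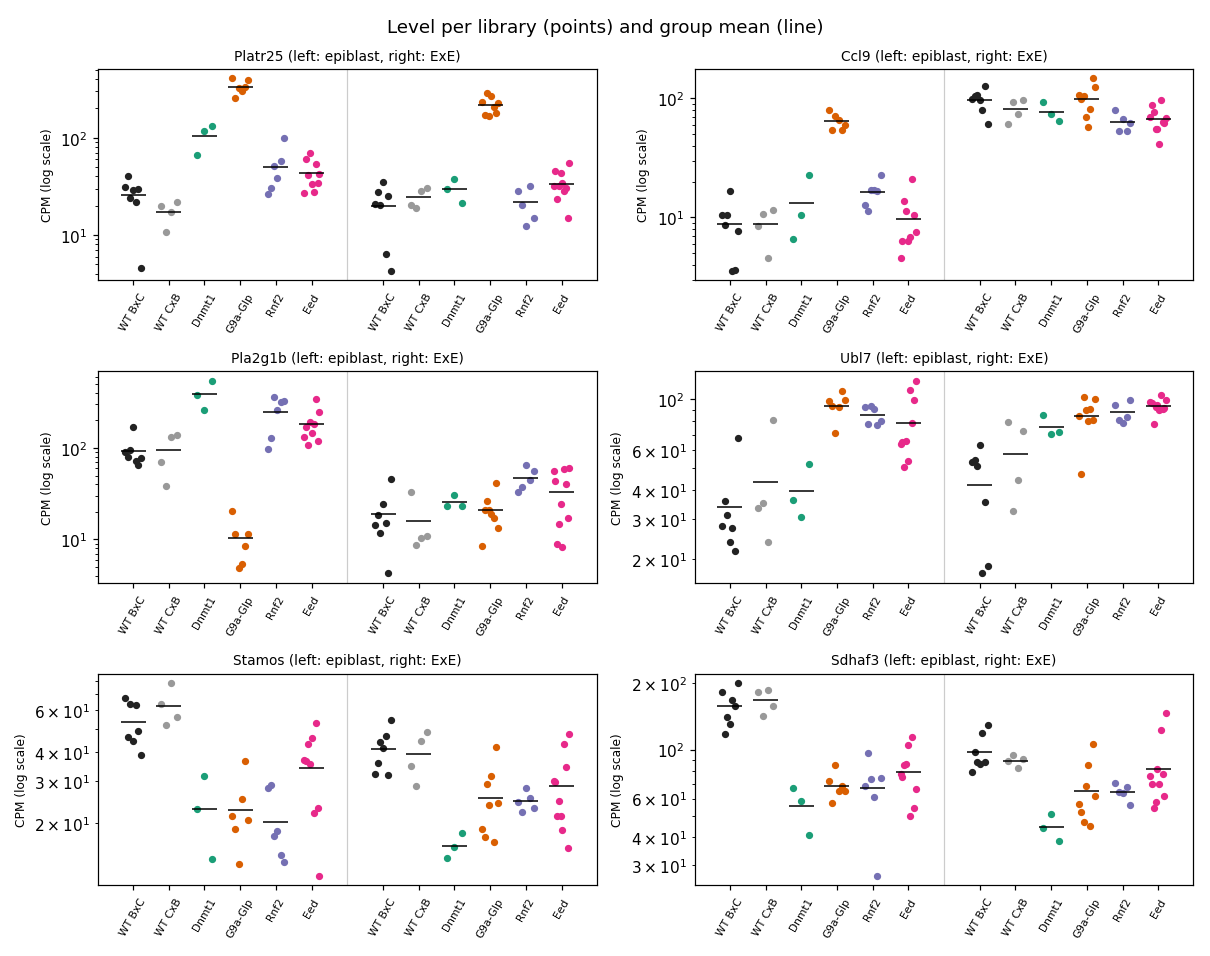
Points are levels of single libraries in CPM (log axis) and lines are group means, for 6 members, with epiblast on the left and ExE on the right of each panel (WT BxC, wild-type BDF1xCAST; WT CxB, wild-type CASTxBDF1). Platr25 is at 167 CPM or more in every G9a-Glp library, the 6 G9a-Glp epiblasts lie above all wild-type epiblasts for Ccl9, and Pla2g1b is lowest there.

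Platr25 (chr13:62696952-62724217, mm10) had the largest change. In wild-type BDF1xCAST epiblast it ranged from 4.57 to 40.3 CPM (median 28.7, n = 7) and in G9a-Glp epiblast from 257 to 409 CPM (median 327, n = 6), a log2 change of 3.58 (adjusted p = 2.33e-07). In ExE it ranged from 4.29 to 34.6 CPM (median 20.6, n = 7) in wild type and from 167 to 289 CPM (median 219, n = 8) in the knockout, a log2 change of 3.41 (adjusted p = 1.83e-07). Every G9a-Glp library of both tissues, those with unlowered Ehmt1 and Ehmt2 reads included, was above every wild-type library. In Dnmt1 epiblast the values were 66.1, 117 and 133 CPM (log2 change 1.77, adjusted p = 0.0111), a call lost without embryo 3. CASTxBDF1 epiblasts had 19.7, 10.7, 17.2 and 21.7 CPM.

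Ccl9 was a gene of ExE in wild type. In BDF1xCAST epiblast it ranged from 3.56 to 16.6 CPM (median 8.59, n = 7) and in ExE from 60.4 to 127 CPM (median 99.5, n = 7), a log2 difference of 3.48 (adjusted p = 1.37e-08). In G9a-Glp epiblast it ranged from 53.8 to 79.8 CPM (median 63.0, n = 6), above every wild-type epiblast (log2 change 2.79, adjusted p = 2.65e-06). Summed ExE markers in the same epiblasts were 27.4 to 128 CPM against 27.1 to 229 CPM in wild type, and their part was not tested. Visceral endoderm markers had a median of 86.0 CPM (12.4 to 309) there against 25.7 (8.26 to 640), and their part in the result was not tested. In ExE, Ccl9 was lower in Eed (67.5 ± 16.4 against 96.6 ± 21.2 CPM, adjusted p = 0.00387) and in the libraries labelled Rnf2 (63.0 ± 11.2, adjusted p = 0.0114). Summed ExE markers were lower there too, with medians of 429 CPM in Eed (322 to 662) and 578 CPM in Rnf2 (516 to 1104) against 708 CPM in wild type (591 to 1037), and their part in the result was not tested.

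Pla2g1b moved in opposite directions in different knockouts of the epiblast. It ranged from 65.7 to 170 CPM (median 78.9, n = 7) in wild type and from 4.89 to 20.7 CPM (median 9.97, n = 6) in G9a-Glp, a log2 change of -3.22 (adjusted p = 2.39e-06) with no overlap. In Dnmt1 epiblast it was at 376, 262 and 543 CPM, above all wild-type libraries (1.87, adjusted p = 0.00144). It was also higher in epiblast labelled Rnf2 (248 ± 110 CPM, adjusted p = 0.00295) and in Eed epiblast (182 ± 73.3 CPM, adjusted p = 0.0131). Its allele ratio was called in none of these comparisons; in G9a-Glp epiblast only 3 libraries had 20 or more reads, with shares of 69, 83 and 85%.

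Across knockouts, Ubl7 was higher in 6 of 8 comparisons and in no comparison lower. In epiblast it ranged from 21.8 to 67.8 CPM (median 27.8, n = 7) in wild type, from 71.0 to 109 CPM in G9a-Glp (log2 change 1.43, adjusted p = 8.33e-05), from 77.1 to 93.2 CPM in Rnf2 (1.35, adjusted p = 0.000164) and from 50.6 to 120 CPM in Eed (1.10, adjusted p = 0.000863). In ExE the wild type ranged from 17.3 to 63.3 CPM, Eed from 78.0 to 104 CPM (1.01, adjusted p = 0.000671) and Rnf2 from 79.0 to 99.3 CPM (1.02, adjusted p = 0.0118). The reciprocal wild type, 33.4, 35.1, 23.8 and 81.4 CPM in epiblast and 79.9, 32.5, 44.2 and 73.0 CPM in ExE, reached into the knockout range in some libraries.

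Lower in most comparisons were Stamos, a long noncoding RNA that partly overlaps Stam (8 of 8), Sdhaf3 (7 of 8) and LOC102635165, the long noncoding RNA Gm13491 of RefSeq (6 of 8). All 8 comparisons rest on 2 sets of wild-type controls, 1 for each tissue. Sdhaf3 in epiblast ranged from 118 to 200 CPM (median 158, n = 7) in wild type and from 143 to 187 CPM in the 4 CASTxBDF1 libraries. In Dnmt1 it was at 67.0, 58.7 and 40.9 CPM (-1.71, adjusted p = 0.000455), in G9a-Glp at 57.4 to 84.8 CPM (-1.26, adjusted p = 8.51e-06), in Rnf2 at 26.8 to 96.2 CPM (-1.24, adjusted p = 0.000824) and in Eed at 50.0 to 114 CPM (-1.13, adjusted p = 7.43e-05). No knockout epiblast library reached a wild-type one. Stamos in epiblast was at 38.9 to 67.4 CPM in wild type and at 51.9 to 77.9 CPM in the reciprocal cross, against 14.1 to 31.5 CPM in Dnmt1 (-1.47, adjusted p = 0.00603), 13.5 to 36.7 in G9a-Glp (-1.31, adjusted p = 0.000308) and 13.6 to 28.9 in Rnf2 (-1.44, adjusted p = 0.000183). In Eed it ranged from 12 to 53.0 CPM and overlapped wild type (-0.80, adjusted p = 0.0142). LOC102635165 had its largest change in Dnmt1 ExE, from 69.8 ± 14.1 to 29.6 ± 4.39 CPM (-1.50, adjusted p = 0.00158).

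The promoters of 4 of these genes show how different their CpG content is, CpG being the dinucleotide that Dnmt1 keeps methylated. Below are the 250 bases before the RefSeq start (GRCm38.p6), on the strand of the gene from 5′ to 3′, with each CpG in capitals. They are Pla2g1b (chr5:115465892-115466141, plus strand), Ccl9 (chr11:83578637-83578886, minus strand), Ubl7 (chr9:57910736-57910985, plus strand) and Sdhaf3 (chr6:6955768-6956017, plus strand), the reference genome being that of C57BL/6 and not of CAST.
Pla2g1b: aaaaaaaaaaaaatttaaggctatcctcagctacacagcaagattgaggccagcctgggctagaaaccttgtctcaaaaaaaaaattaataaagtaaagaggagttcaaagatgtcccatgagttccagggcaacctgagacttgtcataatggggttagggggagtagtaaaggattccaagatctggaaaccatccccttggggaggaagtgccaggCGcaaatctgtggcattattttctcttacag
Ccl9: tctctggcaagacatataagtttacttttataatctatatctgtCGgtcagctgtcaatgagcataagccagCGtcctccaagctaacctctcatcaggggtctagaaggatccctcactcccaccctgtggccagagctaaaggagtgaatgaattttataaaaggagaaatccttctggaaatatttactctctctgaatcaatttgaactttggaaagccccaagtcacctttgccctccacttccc
Ubl7: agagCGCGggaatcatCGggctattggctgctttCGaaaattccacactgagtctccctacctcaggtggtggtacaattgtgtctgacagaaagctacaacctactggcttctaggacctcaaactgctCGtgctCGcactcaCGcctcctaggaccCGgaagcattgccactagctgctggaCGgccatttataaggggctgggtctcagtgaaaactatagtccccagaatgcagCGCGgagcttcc
Sdhaf3: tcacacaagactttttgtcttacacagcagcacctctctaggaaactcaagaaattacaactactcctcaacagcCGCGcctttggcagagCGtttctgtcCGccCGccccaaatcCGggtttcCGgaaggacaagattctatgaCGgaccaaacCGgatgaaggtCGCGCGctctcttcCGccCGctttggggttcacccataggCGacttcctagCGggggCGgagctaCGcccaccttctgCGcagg
The letters CG were counted in each window, and their reverse complement is the same, so both strands are covered. Pla2g1b held 1 CpG, and 92.1% of 32851 RefSeq promoters of the same length held as many or more; Ccl9 held 2 (81.2%), Ubl7 11 (35.6%) and Sdhaf3 19 (19.7%). Pla2g1b and Ccl9, lower and higher in G9a-Glp epiblast, thus both have few CpG, and Sdhaf3, lower in 7 comparisons, has many. The 4 genes were picked for this after their values were seen. Over the 24 promoters found for 22 members the median was 8.5 CpG, against 6 over all promoters. These counts describe the sequence and give no site of action.

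Wild-type ExE was compared with wild-type epiblast separately in each cross. In BDF1xCAST 8 members were higher and 6 lower in ExE, where 27.9% and 28.7% of all genes were, and in CASTxBDF1 6 and 8 (22.0% and 23.0%). That is 14 of 44 in either cross. After Ccl9, Pxt1, a testis-expressed peroxisomal protein gene, and the overlapping Gm16191 were higher in ExE: Pxt1 went from 9.38 ± 4.10 to 27.1 ± 6.70 CPM in BDF1xCAST (log2 difference 1.58, adjusted p = 8.04e-05) and from 12.2 ± 3.94 to 34.9 ± 4.67 CPM in CASTxBDF1 (1.49, adjusted p = 0.000961).

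Gm10457 was lower in ExE, at 21.6 to 85.4 CPM (median 32.6) against 155 to 537 CPM in epiblast (median 233) in BDF1xCAST (-2.58, adjusted p = 3.58e-06), and at 17, 34.1, 17.8 and 18.1 against 109, 189, 173 and 106 CPM in CASTxBDF1 (-2.73, adjusted p = 1.2e-05). Pla2g1b was lower as well, at 4.28 to 45.4 CPM against 65.7 to 170 (-2.23, adjusted p = 6.92e-05) and at 15.8 ± 11.6 against 94.8 ± 48.6 CPM (-2.64, adjusted p = 0.000848). So the tissue with the lower level of Pla2g1b was the one with the higher CAST share. Sdhaf3 was lower in ExE in both crosses too (-0.63, adjusted p = 0.00262, and -0.92, adjusted p = 0.000941). Of the 14 calls in CASTxBDF1, 6 remained without embryo 1 and 8 without embryo 3; Ccl9, Pxt1, Gm16191, Gm10457, Pla2g1b and Sdhaf3 were among them in both cases.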

How the data were processed

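RNA of 72 epiblast and ExE libraries was sequenced, each from 300 to 600 cells of one tissue of one embryo at day 6.5 (SMART-Seq v4 and Nextera XT, per the labels' protocols). The deposited table gives, per gene and library, the count of reads that overlap known polymorphisms, a CAST share minus 0.5, rounded, and a signed score. The submitters' processing notes name STAR 2.5.0, HTSeq and mm10. The deposited score was read as a signed -log10 of a one-sided binomial p, and 99.986% of 712130 scores below 300 matched a whole number of CAST reads, which was used; 3519 values beyond 300 took the rounded share. A bisulfite sample was not used here. Counts over polymorphisms depend on how many a gene holds, so levels are not comparable between genes. Depth limits single shares, and libraries with under 20 reads of a gene gave no share.

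Replicates are separate embryos. Allele counts and total counts were each fitted over all genes with edgeR 4.0.16 (R 4.3.3, limma 3.58.1), quasi-likelihood, Benjamini-Hochberg adjustment, threshold 0.05, for every knockout against wild-type BDF1xCAST of its tissue and, for totals, for ExE against epiblast in each cross; the scripts were tested on simulated data. Alternatives were DESeq2 1.42.0, a minimum of 50 reads, no filter on low counts, other limits of the rule, a block for embryo number, leaving out replicates and, chosen after seeing the data, leaving out the knockout libraries in which no targeted gene lay below the lowest wild-type library. Knockout and wild-type libraries with the same embryo number come from different embryos, per the labels, and were not paired. Correlations of their deviations from the group means ranged from -0.427 to 0.404. For 3 Eed embryo numbers the titles of the tissues differ. Other embryo numbers do pair the tissues of 1 embryo, per the labels (0.002 to 0.515 in BDF1xCAST, 0.077 to 0.428 in CASTxBDF1). These ranges overlap, so the correlations by themselves cannot decide what is paired.

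Genes were named by highest level, highest share, nearness to the threshold, largest spread between embryos, and the largest changes per comparison. The members, lists and tests were chosen with earlier results of these data known. Gene types and promoters come from RefSeq (GRCm38.p6), where 43 members matched by name.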

Additional observations from a re-analysis of the deposited data

Results flagged for a closer look

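Of 65 groups of values checked, 8 held a library far from the others. Some groups were checked because of their spread: Adgrd1, 5730422E09Rik and Ubl7 were named for it in these same libraries. The rate of about 1 in 20 that chance gives therefore does not apply here. In wild-type BDF1xCAST epiblast, embryo 8 was apart for 3 members: Adgrd1 had a CAST share of 48.0% (92.0 to 96.0% in the others), 5730422E09Rik 72.0% (93.0 to 100.0%) and Gm9794 67.0% (74.0 to 77.0%). Those shares of embryo 8 rest on 50, 25 and 1803 reads. The Ubl7 share of embryo 3 in that group was 51.0% (77.0 to 88.0%). In wild-type CASTxBDF1 ExE, Pla2g1b was at 33.1 CPM in embryo 1 (8.6 to 11 CPM in the others), and embryo 2 had 34.1 CPM of Gm10457 (17 to 18.1 CPM) and 27.4 CPM of Arhgap26 (19 to 20.3 CPM). The median share over members was 84.0% in ExE embryo 5 labelled Rnf2 and 91.0 to 93.0% in the other 4 libraries.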

How the results depend on the processing

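The rule kept 28 members with 50 reads per library, 67 at a share of 0.65 and 29 at 0.75. With 50 reads, 9 members were at or above 70% in Dnmt1 epiblast and 19 in Dnmt1 ExE, fewer having a value. Allelic calls among members numbered 1 with DESeq2 and 1 with the replicate block in Dnmt1 epiblast, and 1 with the block in Eed epiblast. Level calls with the replicate block were 5 in Rnf2 epiblast, 0 in Rnf2 ExE and 8 in Eed epiblast; embryos of different groups share only a number. With the paired tissues of an embryo as block, level calls were 19 in BDF1xCAST and 17 in CASTxBDF1. Without the libraries whose targeted genes were not lowered, allelic calls were 0 in Dnmt1 ExE and 1 in G9a-Glp epiblast, and level calls 7 in Dnmt1 ExE, 7 in G9a-Glp epiblast, 3 in G9a-Glp ExE and 5 in Rnf2 epiblast; fewer libraries entered these fits, and for Rnf2 ExE none would remain. Leaving out 1 replicate gave 5 to 8 level calls in Dnmt1 epiblast, 4 to 8 in Dnmt1 ExE (0 to 0 allelic calls), 4 to 7 in Rnf2 ExE and 6 to 15 for the tissues in CASTxBDF1. Other causes were not tested. Of 234 checks on 47 named changes, 207 kept direction and call, 27 kept the direction only and 0 reversed. The named changes were picked as the largest among the calls, those of level also for no overlap of the groups. Their stability therefore does not speak for the other calls. Members with few reads, above all in Dnmt1 epiblast, limit the shares.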
